A study of Mus musculus with 6 samples.

Results

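The cytosolic ribosomal protein genes are described here in MC3T3-E1 cells, a line of osteoblast-like cells from mouse calvaria, that had become resistant to fluoride. The members are the rows of the deposited gene table whose name has the form of a small-subunit (Rps) or large-subunit (Rpl) protein, with or without the endings a, x, l or l1, together with Rplp0, Rplp1, Rplp2, Rpsa and Rpl13a. Rows named as pseudogenes with -ps are no members. The rule found 86 members among 54433 rows, of which 33 belong to the small and 53 to the large subunit, and 10 of the 86 are named as paralogue forms of another member. Of these, 81 had enough counts to be tested (32 small, 49 large). The other 5, Rps4l, Rpl3l, Rpl6l, Rpl10l and Rpl32l, had 0 or a few counts in every library.

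The study compared 3 RNA-seq libraries of fluoride-resistant cells (FR1 to FR3) with 3 libraries of wild-type cells (WT1 to WT3). Per the labels, the FR cells were obtained by keeping WT cells under a gradient of fluoride, given as 10 ppm F-, until they grew at a normal rate, and are labelled as resistant to 30 ppm F-; the WT cells were kept in DMEM. Both groups are the same cell line, and the labels give no transgene, no further agent and no number of clones. The title of the series speaks of tolerant mice, whereas the sample labels describe cells made resistant in culture, and the labels are followed here. Nothing in the labels tells if FR1 to FR3, or WT1 to WT3, were grown as independent cultures; the p-values therefore reflect how far these 6 libraries scatter, and that scatter may be technical.

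A cytosolic ribosome consists of a small 40S subunit, which binds the mRNA and decodes it, and a large 60S subunit, which joins the amino acids. Each subunit holds ribosomal RNA and a fixed set of proteins, nearly all of which are present in a single copy, so the genes are usually expressed together and at high levels. Their mRNAs begin with a run of pyrimidines, the TOP motif, through which mTOR and LARP1 control their translation. Mammalian ribosomal protein mRNAs have also been copied back into the genome many times, which left processed pseudogenes whose sequence is nearly that of the parent mRNA. Osteoblasts that secrete a collagen matrix make much protein and hence many ribosomes.

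Several results below turn on such copies, so a stretch of 60 coding bases of 4 members is shown beside the same stretch of a highly counted copy, with the differing bases in capitals. The transcripts are those of GENCODE M21 (build GRCm38), and each stretch is the part of the coding sequence where the pair differs most. Rps2 lies on chromosome 17 and Rps2-ps13 on chromosome X; they differed at 7 of 882 aligned bases, and 13 further bases were gaps. For Rps18 (chromosome 17) and Rps18-ps6 (chromosome 13) it was 5 of 545 bases, and for Rps26 (chromosome 10) and Rps26-ps1 (chromosome 8) 4 of 429 bases. Rpl3 (chromosome 15) differed from Rpl3-ps1 (chromosome X) at 2 of 1210 bases.
Rps2: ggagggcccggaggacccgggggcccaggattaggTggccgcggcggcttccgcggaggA
Rps2-ps13: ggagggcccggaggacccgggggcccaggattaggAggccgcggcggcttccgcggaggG
Rps18: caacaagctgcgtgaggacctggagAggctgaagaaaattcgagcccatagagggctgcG
Rps18-ps6: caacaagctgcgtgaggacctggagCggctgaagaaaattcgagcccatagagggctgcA
Rps26: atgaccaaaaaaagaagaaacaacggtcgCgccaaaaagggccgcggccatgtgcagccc
Rps26-ps1: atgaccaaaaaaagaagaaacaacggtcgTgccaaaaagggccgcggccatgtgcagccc
Rpl3: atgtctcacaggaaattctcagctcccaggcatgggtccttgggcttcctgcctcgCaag
Rpl3-ps1: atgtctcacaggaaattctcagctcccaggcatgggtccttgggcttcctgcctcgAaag
Reads of 150 bases from the unchanged stretches match parent and copy alike. The share of windows of 150 bases found unchanged in another annotated gene was 49.8% for Rps2, 26.3% for Rps18, 16.9% for Rps26 and 71.0% for Rpl3. Of the 82 members with a transcript in GENCODE M21, a median of 26.4% of windows were so shared; 14 members had none such and 22 had more than 50%. The authors' counting program, RSEM, shares out reads that match several genes by estimation.

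The libraries held 19246119, 25185697 and 21201932 expected counts in FR1 to FR3, against 27140662, 25700497 and 25798631 in WT1 to WT3. Expected counts are the reads that RSEM assigns to a gene, and levels are given below as CPM, the counts of a gene scaled to a common library size. Of 10 osteoblast markers, Runx2, Spp1, Sparc, Col1a1 and Col1a2 were well counted, 5 were under 1 CPM in both groups, and Ibsp was at 0 in all 6 libraries. Their summed level was 4848 to 4878 CPM in FR and 17283 to 17600 CPM in WT. All 4 endothelial and all 5 epithelial markers were under 1 CPM in both groups, and the summed myeloid markers were at 10.3 to 12.1 CPM in FR and 6.57 to 8.01 CPM in WT. The myeloid sum held opposite differences, with Csf1r at 7.13 CPM in FR and 0.596 in WT, and Lyz2 at 1.54 CPM in FR and 6.15 in WT. Skeletal muscle markers summed to 6.38 to 7.15 CPM in FR and 1.87 to 2.1 CPM in WT, with Myod1 at 0. Lower in FR were the sums of chondrocyte markers, at 48 to 51 CPM in FR and 70.3 to 73.1 CPM in WT with Acan and Col9a1 at 0, and of neuronal markers, at 11.5 to 13.3 CPM in FR and 17.1 to 20 CPM in WT with Rbfox3 at 0. Adipocyte markers summed to 0.999 to 1.65 CPM in FR and 0.507 to 1.05 CPM in WT, with Cfd at 0. Most of the skeletal muscle, chondrocyte and neuronal sums lay on single genes, Des, Sox9 and Tubb3. These held 6.26, 49.7 and 12.4 CPM in FR and 1.77, 70.6 and 18.1 CPM in WT. The part of these marker differences in the results on ribosomal proteins was not tested.

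Most ribosomal protein mRNAs were slightly higher in FR than in WT cells, in both subunits. On the members' own rows, 20 of 32 small-subunit members rose and 7 fell in FR (edgeR's quasi-likelihood test, adjusted p under 0.05), where 34.6% of all 14889 tested genes rose and 35.5% fell. Among large-subunit members 31 of 49 rose and 9 fell. In either direction 67 of the 81 members (82.7%) and 70.1% of all tested genes passed. At least 1.5-fold, 1 member (Rpl39l) rose and 5 fell (among them Rps2, Rps18, Rps26 and Rpl22l1), or 7.41% of members, where 12.9% of all tested genes rose, 17.5% fell and 30.4% did either. The median log2 fold change of FR over WT was 0.15 for the small and 0.20 for the large subunit, against 0.00 for all tested genes and 0.06 for the 2285 tested genes of at least 100 CPM. The CPM of FR and WT did not overlap for 19 small-subunit members higher in FR and 6 lower, and for 33 large-subunit members higher and 9 lower, beside 35.7% and 36.6% of all tested genes. Being bulk samples, these libraries cannot tell a change in the number of cells from a change in RNA per cell.

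The falls on single rows included the largest changes, but for 8 of the 16 members that fell the direction turned when all recorded copies were counted. When the counts of all recorded copies were added to each member before the fit, 24 small-subunit members rose and 3 fell, and 37 large-subunit members rose and 5 fell, where 34.8% and 35.6% of 14807 tested rows did so. In either direction this was 69 of 81 members (85.2%), beside 70.3% of all tested rows. At least 1.5-fold, Rpl39l rose and Rpl22l1 fell, or 2.47% of members, beside 30.3% of all tested rows. The 51 members that rose on their own row also rose with copies, and 2 further members, Rpl14 and Rpl24, passed only with copies. For Rpl24 the copies held at most 0.169 CPM in a library, beside 461 CPM or more on its own row. Its log2 fold change was 0.05 and then 0.06 (adjusted p = 0.051 and 0.043), so the added counts were almost none. The 8 members that fell on their own row and rose with copies included Rps2, Rps18, Rps26, Rpl3, Rpl7a, Rpl30 and Rpl34. The other 8 fell in both fits: Rps21, Rps27, Rps27l, Rpl7, Rpl22l1, Rpl35a, Rpl36a and Rpl41. Fewer turned when only the rows named -ps were added, and 10 of the 81 members then fell. Rpl7a was still lower there (-0.14, adjusted p = 4.04e-06), and Rpl30 did not pass (-0.00, adjusted p = 0.978). With copies, 79 of 81 members (97.5%) lay within 1.5-fold of WT, as did 67.2% of all tested rows and 85.7% of the 2260 tested rows of at least 100 CPM. Where at most 10% of a member's windows were shared, 9 of 12 small-subunit members rose and 2 fell on their own rows, and 9 of 13 large-subunit members rose and 3 fell. These 3 included Rpl34, which rose with copies, and Rpl35a, at -0.40 on its own row and -0.12 with copies. A low share of windows thus did not leave these members free of counts on copies. Across the 80 tested members with a transcript, Spearman's rho between the share of windows found elsewhere and the size of the change on the own row was -0.13.

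**Figure D1:**
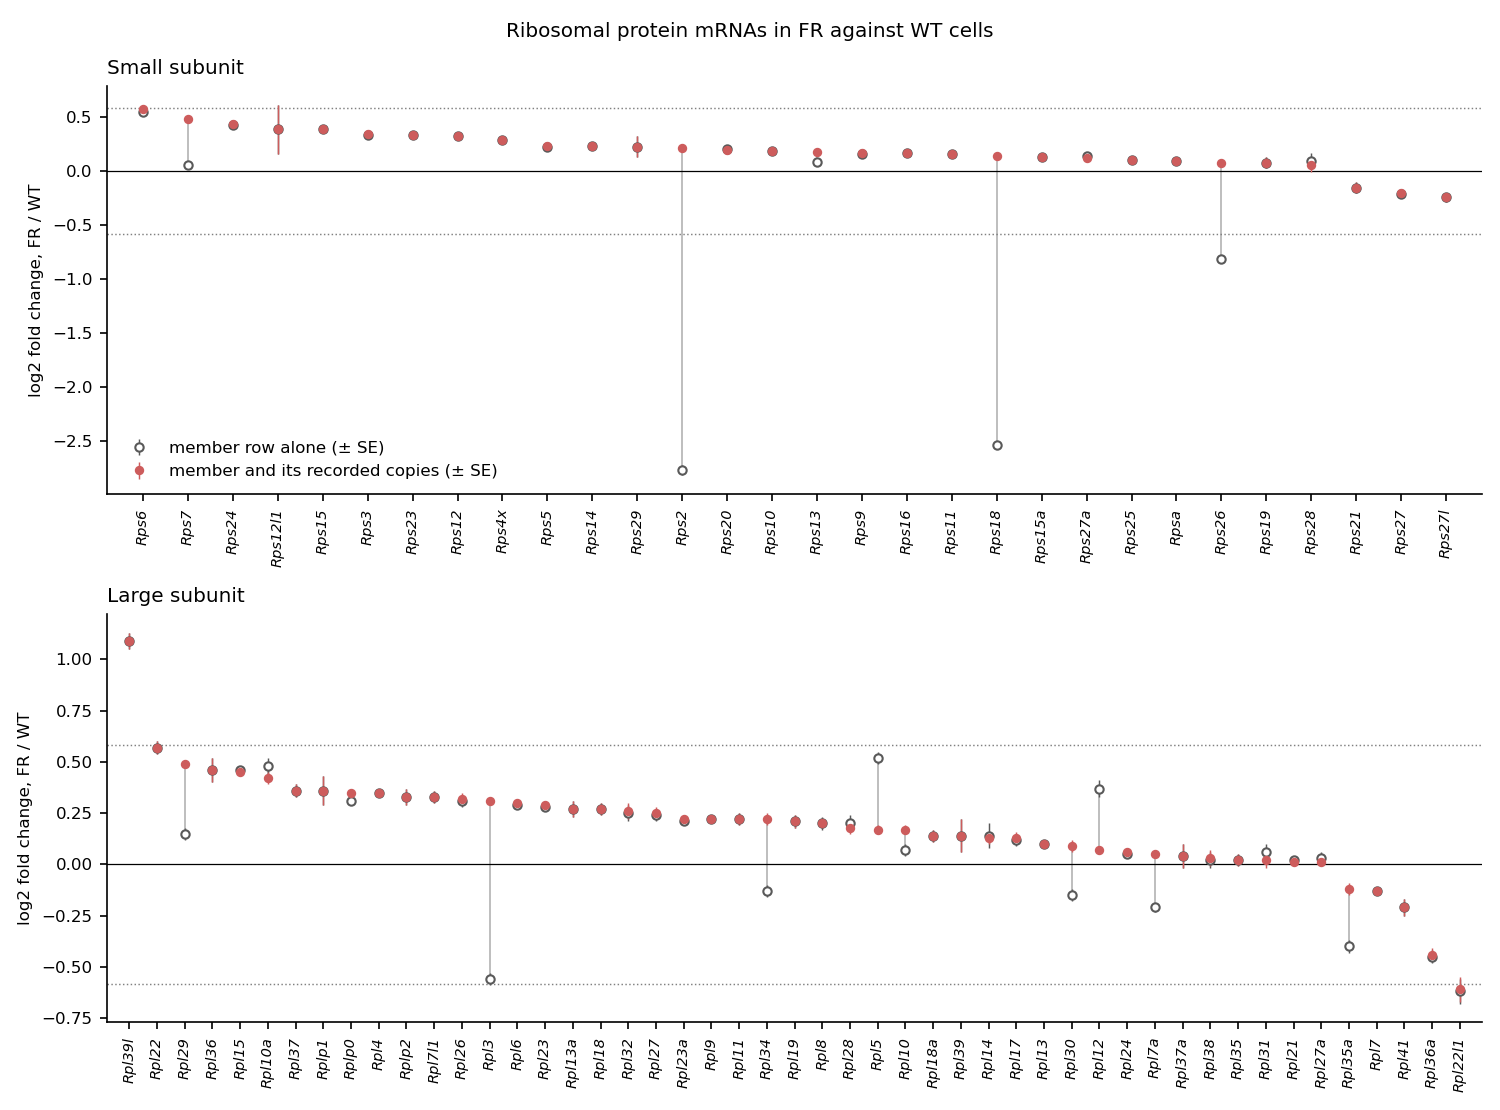
Log2 fold change of FR over WT (y axis, ± SE of the fit over 3 and 3 libraries) for 30 small-subunit and 49 large-subunit genes (x axis), small subunit above and large subunit below. Open circles are the gene row alone, filled circles the gene with its recorded copies, and dotted lines mark 1.5-fold; Rps2 and Rps18 lie at -2.77 and -2.54 on their own rows and at 0.22 and 0.14 with copies.

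Rps2, a protein near the entry of the mRNA channel, had the lowest value. Its own row held 260, 289 and 267 CPM in FR1 to FR3, against 1772, 1887 and 1915 CPM in WT1 to WT3, a log2 fold change of -2.77 ± 0.05 (SE, adjusted p = 1.33e-11). Every FR library was far below every WT library. The copies of Rps2 held 3207, 3476 and 3309 CPM in FR and 1187, 1243 and 1257 CPM in WT, so here the order was the opposite. Most of this lay on Rps2-ps10, with 2249 ± 96.8 CPM in FR and 773 ± 20.6 CPM in WT, and on Rps2-ps13, with 1072 ± 41.1 CPM in FR and 449 ± 15.7 CPM in WT (SD, n = 3 each). Gene and copies together came to 3466, 3764 and 3576 CPM in FR, against 2959, 3130 and 3172 CPM in WT, a rise of 0.22 ± 0.03 on the log2 scale (adjusted p = 4.95e-05).

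Rps18, a protein of the head of the 40S subunit, followed the same course. Its row held 88.8, 86.8 and 90 CPM in FR, against 494, 531 and 517 CPM in WT, a log2 fold change of -2.54 ± 0.03 (adjusted p = 3.53e-31). With its copies it held 959, 995 and 1014 CPM in FR, against 868, 925 and 896 CPM in WT, a rise of 0.14 ± 0.03 (adjusted p = 1.6e-05). The groups did not overlap in either sum or row, but lay in opposite orders. Rps18-ps6 was counted at 795 ± 22.6 CPM in FR and 337 ± 9.54 CPM in WT (SD, n = 3 each).

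Rps26, which lines the exit of the mRNA channel and is mutated in some families with Diamond-Blackfan anaemia, an inherited failure of red cell formation, held 526, 529 and 529 CPM in FR, against 895, 948 and 926 CPM in WT (-0.81 ± 0.02, adjusted p = 1.1e-21). Its copy Rps26-ps1 held 656, 672 and 657 CPM in FR and 203, 196 and 204 CPM in WT. The sum rose by 0.08 ± 0.02 (adjusted p = 0.00188), from rows that differed by 1.75-fold and 3.3-fold in opposite directions.

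Rpl3, which reaches the peptidyl transferase centre of the 60S subunit and joins it early in assembly, was the large-subunit counterpart. Its row held 595, 617 and 613 CPM in FR, against 867, 908 and 919 CPM in WT (-0.56 ± 0.03, adjusted p = 1.31e-17). Rpl3-ps1 held 1072, 1095 and 1055 CPM in FR and 436, 464 and 476 CPM in WT. The sum was higher in every FR library, at 1667, 1712 and 1669 CPM, than in the WT libraries, at 1303, 1372 and 1395 CPM (0.31 ± 0.02, adjusted p = 1.99e-12).

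**Figure D2:**
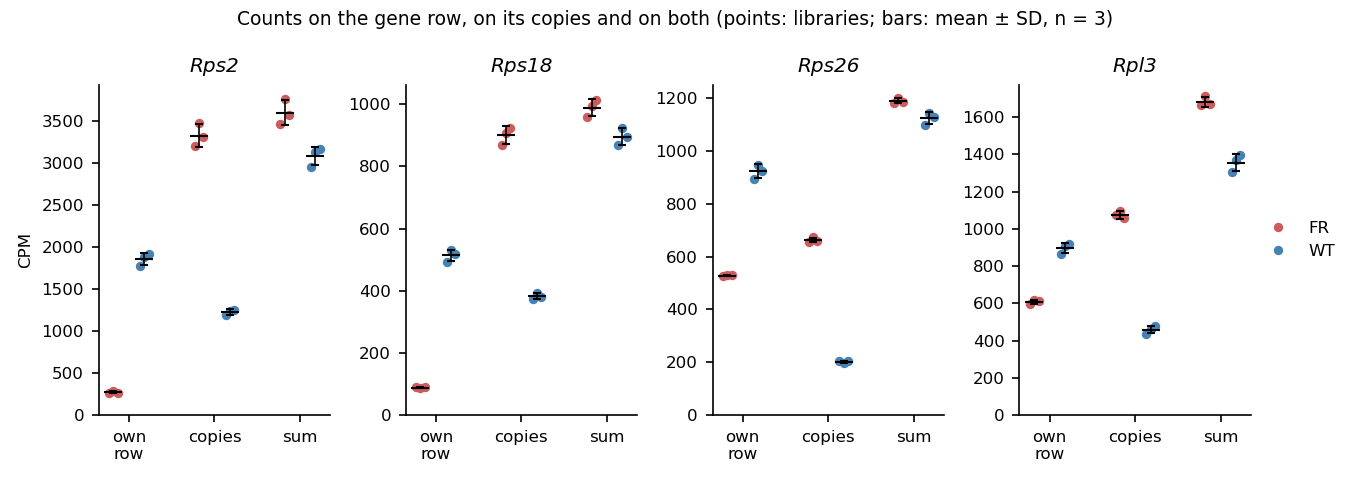
CPM (y axis, from 0) on the gene's own row, on its recorded copies and on their sum (x axis) for Rps2, Rps18, Rps26 and Rpl3; points are libraries, bars the mean ± SD of 3 libraries, FR left of WT. In all 4 genes FR lies below WT on the own row and above WT on the copies and on the sum, for Rps2 with 3466 to 3764 CPM in FR and 2959 to 3172 CPM in WT.

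The division of the counts between a member and its copies separated 11 members from the rest. Among 31 members with a copy row of at least 20 CPM in either group, the percent of the summed CPM that lay on the member's own row was lower in FR by at least 10 points for 11, and for the other 20 it differed by -3.21 to 2.97 points. For Rps2 it was 7.55 ± 0.113% in FR and 60.2 ± 0.260% in WT, and for Rps18 8.95 ± 0.276% in FR and 57.3 ± 0.398% in WT (SD, n = 3 each). Among the other 9 the differences were -37.7 points for Rps26, -30.0 for Rpl3, -19.6 for Rps7, -17.7 for Rpl34, -16.1 for Rpl29, -15.8 for Rpl35a, -14.4 for Rpl7a and -13.3 for Rpl30. The 11 were set apart after their values were seen, so no test is given. Their 21 copy rows of at least 20 CPM had log2 fold changes of 0.82 to 1.80 with a median of 1.25, and 18 rose. The 22 such copy rows of the other 20 members ranged from -0.41 to 1.35 with a median of 0.17, and 12 rose and 2 fell. Of all tested genes 34.6% rose and 35.5% fell. The difference between these copy rows follows in part from how the 11 were chosen and is given as a description. The limit of 20 CPM in either group also favours rises. All such rows of Rpl35a, and Rps18-ps3, passed it through FR alone, and none passed it through WT alone. Among them was the row with the highest value of 1.80, Rpl35a-ps6, at 20.5 CPM in FR and 5.85 CPM in WT. How far the estimation of shared reads enters this division was not tested. For Rps7 and Rpl29 the own rows moved little, by 0.06 ± 0.02 (adjusted p = 0.0296) and 0.15 ± 0.03 (adjusted p = 1.18e-05), while gene and copies rose by 0.49 ± 0.02 each (adjusted p = 1.2e-17 and 3.34e-17). The reverse held for Rpl5 and Rpl12, which rose by 0.52 and 0.37 on rows that carried 12.1% and 9.22% of the summed CPM in FR and 9.45% and 7.5% in WT, and by 0.17 and 0.07 with copies.

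In the small subunit most proteins of the head and most of the body rose. On own rows 9 of 14 head proteins rose and 1, Rps18, fell, where 34.6% of all tested genes rose and 35.5% fell. Of 16 body and platform proteins 11 rose and 5 fell, among them Rps2, Rps21, Rps26 and Rps27. With copies 10 head proteins rose, and 14 body and platform proteins rose while Rps21 and Rps27 fell. Of all tested rows 34.8% rose and 35.6% fell with copies. The difference between the lists was not tested. Rps6, the substrate of the S6 kinases, showed the largest rise on an own row of this subunit, though 82.4% of its windows occur elsewhere. It held 1712, 1681 and 1705 CPM in FR, against 1148, 1172 and 1173 CPM in WT, with no overlap and 0.55 ± 0.02 on the log2 scale (1.46-fold, adjusted p = 9.67e-19). Rps24, mutated in some families with Diamond-Blackfan anaemia, held 1204, 1211 and 1242 CPM in FR and 898, 917 and 891 CPM in WT (0.43 ± 0.02, adjusted p = 6.01e-16), and only 6.69% of its windows occur elsewhere. Rps15, a head protein needed for export of the 40S precursor from the nucleus, held 1087, 1159 and 1119 CPM in FR and 828, 877 and 870 CPM in WT (0.39 ± 0.03, adjusted p = 1.54e-12). Its 351 windows were all its own. Rps23, a protein of the decoding centre, rose by 0.34 ± 0.03 and Rps3, at the mRNA entry, by 0.34 ± 0.03 (adjusted p = 2.09e-12 and 4.04e-12).

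Rpsa and Rps27a rose less than Rps6, Rps24, Rps15, Rps23 and Rps3. Rpsa, also known as a laminin receptor, held 2134, 2253 and 2148 CPM in FR and 1989, 2043 and 2079 CPM in WT (0.10 ± 0.02, adjusted p = 0.000816). Rps27a, which is made as a fusion with ubiquitin, held 679, 751 and 731 CPM in FR and 624, 671 and 668 CPM in WT (0.14 ± 0.04, adjusted p = 0.0101). In both genes the lowest FR library lay above the highest WT library, by a small margin. Rps27, a zinc-finger protein of the small subunit, fell: it held 227, 255 and 247 CPM in FR and 274, 288 and 282 CPM in WT (-0.21 ± 0.04, adjusted p = 3.82e-05). Of its windows, 98.0% occur elsewhere. Rps21 held 229, 251 and 239 CPM in FR and 250, 281 and 267 CPM in WT, with 1 FR library above 1 WT library (-0.15 ± 0.05, adjusted p = 0.0164). Among the 5 that did not pass the test, Rps19, Rps28, Rps29 and Rps12l1 had log2 fold changes of 0.08, 0.10, 0.23 and 0.39.

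In the large subunit the 3 proteins of the stalk, which recruits the elongation factors, rose together. Rplp0, the base of the stalk, held 3798, 3846 and 3869 CPM in FR, against 3006, 3109 and 3154 CPM in WT (0.31 ± 0.02, adjusted p = 4.11e-13), the highest CPM of any member on its own row. Rplp1 held 1408, 1628 and 1523 CPM in FR and 1105, 1224 and 1222 CPM in WT (0.36 ± 0.07, adjusted p = 0.0111), and Rplp2 held 652, 700 and 661 CPM in FR and 505, 551 and 549 CPM in WT (0.33 ± 0.04, adjusted p = 2.7e-06). All 3 had every FR library above every WT library. The 2 proteins that carry the 5S RNA and that can bind Mdm2, the negative regulator of p53, also rose: Rpl11 held 632, 668 and 647 CPM in FR and 539, 553 and 577 CPM in WT (0.22 ± 0.03, adjusted p = 4.94e-08), and Rpl5 held 162, 155 and 163 CPM in FR and 115, 108 and 112 CPM in WT (0.52 ± 0.03, adjusted p = 2.99e-14; with copies 0.17 ± 0.02, adjusted p = 6.13e-08). Rpl15, a core protein of the 60S subunit, held 914, 932 and 923 CPM in FR and 653, 683 and 671 CPM in WT (0.46 ± 0.02, adjusted p = 2.47e-16). Rpl10a, the protein of the L1 stalk, held 672, 616 and 691 CPM in FR and 468, 491 and 461 CPM in WT (0.48 ± 0.04, adjusted p = 5.11e-06). Rpl13a, also used as a reference gene in qPCR, held 1241, 1347 and 1263 CPM in FR and 1012, 1090 and 1098 CPM in WT (0.27 ± 0.04, adjusted p = 8.93e-05). Rpl10, which joins the 60S subunit last, held 482, 496 and 490 CPM in FR and 445, 478 and 476 CPM in WT (0.07 ± 0.03, adjusted p = 0.0258). Its call was lost without FR1, FR2, FR3 or WT1, at adjusted p = 0.0536, 0.133, 0.077 and 0.476, and the value was 0.02 without WT1. It was lost as well with no filter on low counts (0.05, adjusted p = 0.2), while with copies Rpl10 rose by 0.17 (adjusted p = 7.95e-08).

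A few large-subunit genes fell whether or not copies were added. Rpl36a, a protein of the E site, held 257, 278 and 269 CPM in FR, against 366, 369 and 362 CPM in WT (-0.45 ± 0.03, adjusted p = 2.17e-14), and -0.44 ± 0.03 with copies. Its copy Rpl36a-ps2 was also lower, at 101, 110 and 113 CPM in FR and 144, 145 and 141 CPM in WT. Thus row and copy kept the same proportion in both groups. Rpl35a, mutated in some families with Diamond-Blackfan anaemia, held 237, 253 and 243 CPM in FR and 319, 331 and 321 CPM in WT (-0.40 ± 0.03, adjusted p = 2.69e-13), and -0.12 ± 0.03 with copies (adjusted p = 0.00196). Rpl41, which encodes the smallest ribosomal protein, held 1459, 1617 and 1581 CPM in FR and 1720, 1857 and 1812 CPM in WT (-0.21 ± 0.04, adjusted p = 0.00306), and 1 of its 360 windows occurred in another gene. Rpl7 fell (-0.13 ± 0.02, adjusted p = 2.11e-05).

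With copies added, the largest rise and the largest fall of all members were those of paralogue forms, Rpl39l and Rpl22l1. Rpl39l, a paralogue of Rpl39 known from testis, held 101, 111 and 109 CPM in FR, against 50, 51.3 and 49.9 CPM in WT, a rise of 1.09 ± 0.04 (2.12-fold, adjusted p = 6.49e-20). Its parent Rpl39, which lines the exit tunnel, held 263, 309 and 294 CPM in FR and 244, 274 and 269 CPM in WT and did not pass (0.14 ± 0.08, adjusted p = 0.195). It passed without FR1 (0.19, adjusted p = 0.00773), and was at 0.08 without FR2 or without WT1 (adjusted p = 0.392 and 0.404). The log2 ratio of Rpl39l to Rpl39 was -1.43 ± 0.05 in FR and -2.38 ± 0.08 in WT (SD, n = 3 each), so Rpl39l made up 27.1% of the pair's counts in FR and 16.1% in WT. Rpl22 and Rpl22l1 moved apart: Rpl22, an RNA-binding protein that in mouse is known to hold down the expression of its paralogue, held 340, 356 and 341 CPM in FR and 229, 236 and 231 CPM in WT (0.57 ± 0.03, adjusted p = 3.45e-17). Rpl22l1 held 30.1, 37.3 and 34.8 CPM in FR, against 49.9, 54.4 and 53.1 CPM in WT (-0.62 ± 0.06, 1.53-fold, adjusted p = 7.91e-08). Its fold fell short of 1.5 when FR1 was left out, while the direction held. The log2 ratio of Rpl22l1 to Rpl22 was -3.35 ± 0.13 in FR and -2.15 ± 0.05 in WT, or 8.96% of the pair's counts in FR and 18.4% in WT.

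The remaining pairs changed less. Rpl7l1, a paralogue of Rpl7 found on precursors of the 60S subunit, held 171, 165 and 163 CPM in FR and 128, 137 and 133 CPM in WT (0.33 ± 0.03, adjusted p = 3.23e-10), and its ratio to Rpl7 was higher in FR by 0.46 on the log2 scale. Rps27l, a paralogue of Rps27 known as a target of p53, held 87.3, 98.7 and 87.5 CPM in FR and 106, 108 and 110 CPM in WT (-0.24 ± 0.04, adjusted p = 2.5e-05). Rps27 fell too, and the log2 ratio was -1.41 ± 0.07 in FR and -1.38 ± 0.02 in WT. Rps12l1 held 20.7, 24.3 and 33.6 CPM in FR and 18.1, 18.6 and 23.4 CPM in WT, and the groups overlapped. Of the windows of its parent Rps12, 76.5% occur unchanged in Rps12l1. How far the estimation of shared reads enters the counts of Rps12l1 was not tested. Over the 5 pairs, exact two-sided permutation tests gave p = 0.1 for Rpl39l, Rpl22l1 and Rpl7l1 (adjusted over the 5 pairs 0.167), the smallest p that 3 against 3 libraries allow, 0.6 for Rps27l and 0.8 for Rps12l1. The 5 untested paralogues had at most 4.14 expected counts in a library, the highest value being Rpl6l in WT1; Rpl10l, Rps4l and Rpl32l were at 0 in all 6.

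**Figure D3:**
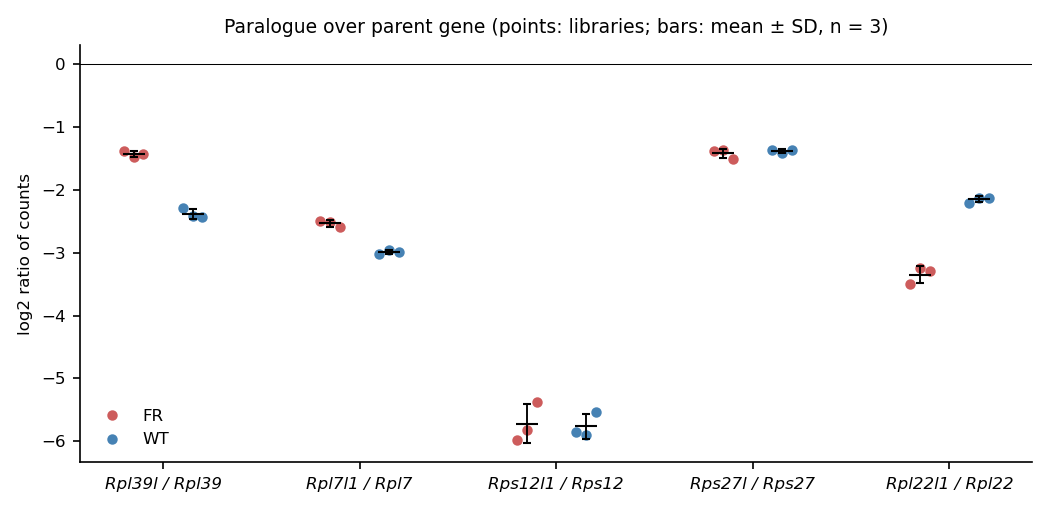
Log2 ratio of counts of a paralogue to its parent gene (y axis) for 5 pairs (x axis); points are libraries, bars the mean ± SD of 3 libraries, FR left of WT. The pairs Rpl39l/Rpl39 and Rpl7l1/Rpl7 lie higher in FR, Rpl22l1/Rpl22 lies lower in FR (-3.35 against -2.15 in WT), and the groups overlap for Rps27l/Rps27 and Rps12l1/Rps12.

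Summed over each subunit, the same contrast between own rows and copies appeared. Small-subunit rows took 2.10, 2.18 and 2.17% of all counts on named genes in FR, against 2.06, 2.16 and 2.13% in WT, and the groups overlapped (exact two-sided permutation test, p = 0.5). Large-subunit rows took 3.60, 3.73 and 3.70% in FR, against 3.19, 3.33 and 3.30% in WT, with no overlap (p = 0.1, the smallest that this exact test allows). With all recorded copies the small subunit came to 2.86, 2.98 and 2.94% in FR and 2.40, 2.50 and 2.47% in WT, and the large subunit to 4.31, 4.46 and 4.42% in FR and 3.74, 3.88 and 3.86% in WT. Every FR library was then above every WT library in both subunits, the smallest p of 0.1 being reached for each. The log2 ratio of large to small subunit counts was 0.77 ± 0.00336 in FR and 0.63 ± 0.00472 in WT on member rows, but 0.59 ± 0.00453 in FR and 0.64 ± 0.0056 in WT with copies (SD, n = 3 each; exact permutation p = 0.1 for each difference). The order of the groups in this ratio thus turned with the copies.

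**Figure D4:**
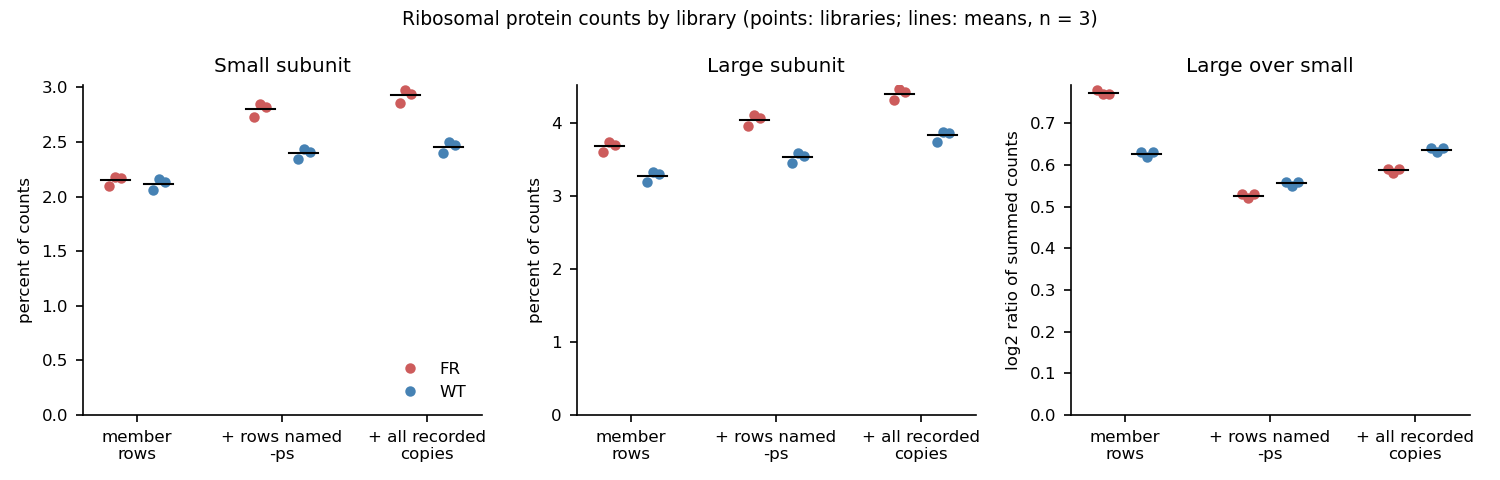
Percent of counts on small-subunit genes (left) and large-subunit genes (middle) and log2 ratio of large to small subunit counts (right), each for member rows alone, with rows named -ps and with all recorded copies (x axis); points are libraries, lines the means of 3 libraries, FR left of WT. With all copies the small-subunit share is 2.86 to 2.98% in FR and 2.40 to 2.50% in WT, and the ratio, higher in FR on member rows, is lower in FR with copies.

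Levels per length spanned a wide range within each subunit. The own rows of the small subunit held 65.7 to 2961 CPM per kilobase in FR with a median of 744, and 50.2 to 2357 in WT with a median of 753. Those of the large subunit held 61.7 to 3050 CPM per kilobase in FR with a median of 724, and 50.9 to 3530 in WT with a median of 668. In FR the highest levels per kilobase were those of Rpl41 (3050 ± 163), Rplp1 (3046 ± 220) and Rps12 (2961 ± 103; SD, n = 3 each), and these 3 do not differ beyond their spread. The length is that of 1 transcript a gene in the deposited table. Transcript length also went with the change: in the 21 tested members of at most 600 bases the median log2 difference from the WT mean was -0.04, 0.08 and 0.10 in FR1, FR2 and FR3, and in the 60 longer members 0.14, 0.23 and 0.20. FR1 was the lowest FR library in both classes. In all tested genes these medians were 0.07, 0.16 and 0.14 for those of at most 600 bases, and -0.01, -0.00 and 0.00 for longer ones. The part of transcript length in the results was not tested.

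The start sites of 6 members that changed are shown because the TOP motif lies there. Each window holds 20 bases before the start and 10 from it on (RefSeq, GRCm38.p6), so that the start is base 21, and capitals mark the longest run of C and T, or the first of them where runs are equally long, as in Rpl22 and Rpl36a. Rpl39l, Rps6 and Rpl22 rose and Rpl22l1, Rpl36a and Rps27l fell. The windows are chr16:10170208-10170237 (+) for Rpl39l, chr4:86857358-86857387 (-) for Rps6, chr4:152325706-152325735 (+) for Rpl22, chr3:28805488-28805517 (+) for Rpl22l1, chrX:134585634-134585663 (+) for Rpl36a and chr9:66946066-66946095 (+) for Rps27l.
Rpl39l: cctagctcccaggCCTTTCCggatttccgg
Rps6: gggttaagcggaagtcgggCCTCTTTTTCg
Rpl22: ccgaCTTCgccctgggaaaagcaatagctg
Rpl22l1: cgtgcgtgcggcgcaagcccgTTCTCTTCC
Rpl36a: aggaagtgcaCCCaggcaccgcctataaac
Rps27l: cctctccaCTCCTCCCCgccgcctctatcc
A run of 10 pyrimidines spans the start of Rps6 and a run of 9 follows that of Rpl22l1, so a run at the start was seen in a gene that rose and in a gene that fell. RefSeq promoters of 300 bases (250 before to 50 after the start) were found for 63 members, with 75 starts. The letters CTTTC, on the forward strand from 30 bases before to 50 after the start, occurred in 45.3% of these starts and in 10.3% of all 32851 starts. CCGGAAG, the core of ETS factor sites, searched on both strands over the 300 bases, occurred in 34.7% of member starts and in 8.86% of all. AAGATGG, the core of YY1 sites, searched likewise, occurred in 16% of member starts and 6.34% of all. None of these motifs contains another. CTTTC was found at 21 of 50 starts of members that rose with copies, at 6 of 11 of members that fell and at 7 of 10 of members that did not pass. In the same order CCGGAAG was found at 17, 4 and 5 of these starts, and AAGATGG at 8, 4 and 0. The letters TATAAA, on the forward strand in the 50 bases before the start, occurred in 1.33% of member starts and 2.63% of all.

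Other genes of translation and ribosome production were set beside the members, from lists written with results of these data known. Of 6 ribosomal proteins outside the name rule 5 rose, where 34.6% of all tested genes rose and 35.5% fell. Among the 5 was Rps3a1, at 1918, 1904 and 1974 CPM in FR and 1461, 1525 and 1508 CPM in WT (0.37 ± 0.02, adjusted p = 3.21e-14). Rack1, a scaffold protein on the head of the 40S subunit, rose by 0.31 ± 0.02, Fau by 0.22 ± 0.03, Rpl10-ps3 by 0.25 ± 0.02 and Rpl36al by 0.09 ± 0.03 (adjusted p = 4.37e-12, 1.17e-06, 2.52e-10 and 0.00888). Rpl10-ps3 is also counted as a copy of Rpl10 above, and with copies added to their parents 4 of the list rose.

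Of 16 elongation factors and other mRNAs with a TOP motif, 12 rose and 1 fell, with a median of 0.34, where 34.6% of all tested genes rose and 35.5% fell with a median of 0.00; these shares stand beside the next 2 lists too. Eef2, which moves the ribosome along the mRNA, held 6437, 6645 and 6438 CPM in FR, against 3726, 3815 and 3905 CPM in WT (0.77 ± 0.02, adjusted p = 2.97e-22), and Eif4b rose by 0.66 ± 0.02 (adjusted p = 1.77e-20). Tpt1 fell (-0.16 ± 0.03, adjusted p = 0.000154). Of 70 ribosome biogenesis factors 56 rose and 9 fell, with a median of 0.28. Ddx21, a nucleolar RNA helicase, held 504, 496 and 503 CPM in FR and 332, 330 and 339 CPM in WT (0.59 ± 0.02, adjusted p = 2.22e-18), and Wdr43, a factor of the 40S precursor, 206, 199 and 208 CPM in FR and 137, 134 and 137 CPM in WT (0.59 ± 0.03, adjusted p = 1.21e-16). Nop10, of the H/ACA particles that modify ribosomal RNA, fell (-0.71 ± 0.05, adjusted p = 1.96e-13), as did Znhit6 (-0.63 ± 0.05, adjusted p = 5.95e-12). Of 15 genes of RNA polymerase I and ribosomal DNA transcription 10 rose and 1 fell, with a median of 0.17; Polr1f rose by 0.71 ± 0.05, Polr1c by 0.38 ± 0.04, and Polr1h was at -0.20 ± 0.08 (adjusted p = 8.92e-14, 8.64e-10 and 0.0401).

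The counts of upstream and neighbouring genes are set beside the 34.6% higher and 35.5% lower of all tested genes. Of 32 initiation factors 15 rose and 11 fell, with a median of 0.05, and among 30 genes of mTOR, S6 kinase, LARP1 and MYC control 12 rose and 12 fell. Of the initiation factors, Eif3i rose by 0.46 ± 0.03 and Eif2s1 by 0.43 ± 0.03 (adjusted p = 1.06e-14 and 4.77e-14). Eif4g3, a scaffold of cap binding, held 9.5, 8.11 and 7.56 CPM in FR, against 80.6, 74.7 and 82.1 CPM in WT (-3.24 ± 0.06, adjusted p = 4.8e-25), and Eif1ax fell (-1.30 ± 0.03, adjusted p = 3.56e-24). In the control list Myc, a transcription factor that drives ribosome production, held 144, 140 and 138 CPM in FR and 78.5, 77 and 81.3 CPM in WT (0.83 ± 0.03, adjusted p = 9.42e-19), and Mtor held 78.3, 73.6 and 72.4 CPM in FR and 48, 47.6 and 46.2 CPM in WT (0.66 ± 0.04, adjusted p = 2.55e-14). Sesn3, an inhibitor of mTORC1, and Rps6ka3, a kinase of the RSK family, fell (-1.64 ± 0.04 and -1.59 ± 0.04, adjusted p = 6.31e-25 and 1.8e-24). Of 12 genes of the p53 arm of the ribosomal stress response 1 rose and 9 fell, with a median of -0.46, beside the same shares of all tested genes. Trp53 itself rose (0.17 ± 0.03, adjusted p = 1.14e-05), while its targets Phlda3 (-0.92 ± 0.04, adjusted p = 7.91e-19) and Cdkn1a (-0.76 ± 0.03, adjusted p = 9.32e-18) fell.

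**Figure D5:**
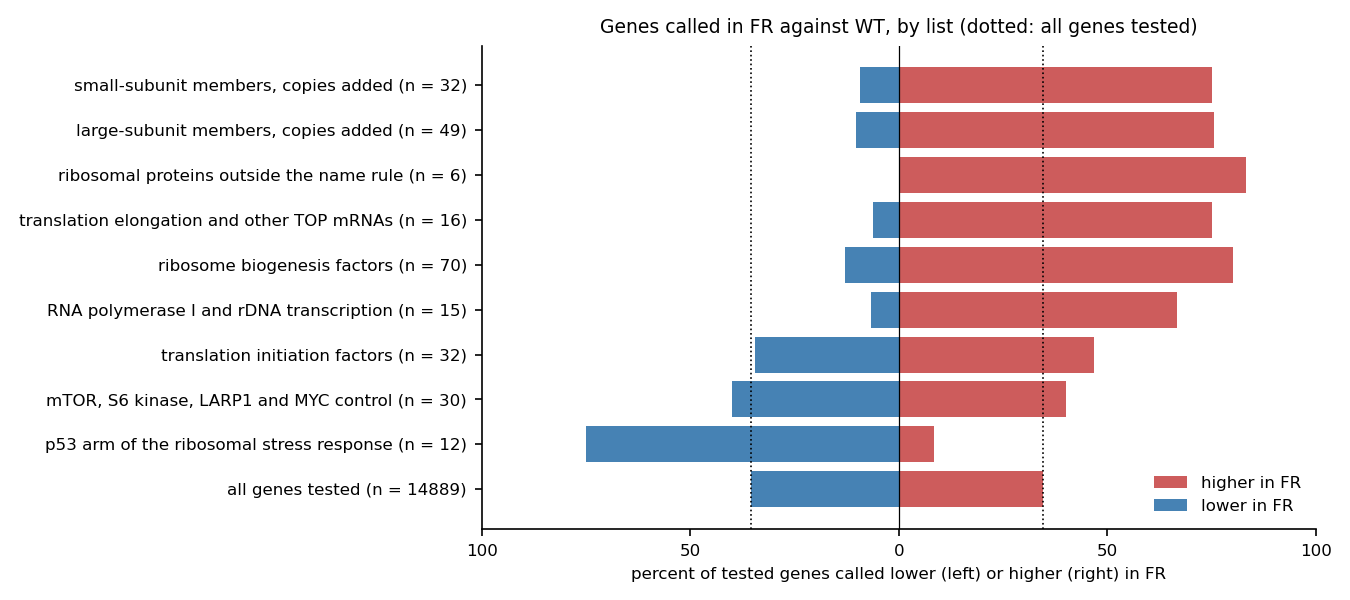
Percent of tested genes called lower (left of 0) or higher (right of 0) in FR against WT (x axis) for the ribosomal protein genes by subunit with copies added and for other lists (y axis, n tested in brackets). Dotted lines mark all 14889 tested genes, 34.6% higher and 35.5% lower; 56 of 70 ribosome biogenesis factors are higher and 9 of 12 genes of the p53 arm are lower.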

How the data were processed

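Total RNA of 6 libraries was selected for poly(A), fragmented, primed with random hexamers and sequenced as paired reads, per the labels' protocols; strand is not given in the sources used here. The deposited table gives unscaled expected counts by gene, which the authors made with fastp, HISAT and RSEM on GRCm39, per the submitters' processing notes; 85.9% of the values were whole numbers, and 2 columns of group means were not used. The authors' files give no coordinates, and GENCODE M21 and the RefSeq promoters are of GRCm38, so these served for sequences, chromosomes and shared windows only.

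Expected counts were rounded and fitted on the whole table with edgeR 4.0.16 (R 4.3.3): filterByExpr, TMM factors, robust quasi-likelihood F-test, FR over WT, no covariates, Benjamini-Hochberg adjustment over all tested genes, threshold 0.05. A second rule asked in addition for 1.5-fold. SE were derived from the fit, as the size of the log2 fold change divided by the square root of its F statistic. CPM use the TMM factors. CPM of a member with copies are sums of the CPM of its row and its copy rows, with the same TMM factors. Fold changes with copies are from a separate fit of the table in which 812 copy rows were added to their parents. Copy rows are those named -ps or rt and those with the parent's Swiss-Prot entry in the deposited annotation. Annotated pseudogenes that share a window of 150 bases count as copies too. Only the rows named -ps were planned as an alternative; the wider set was chosen after seeing the data. Shares and ratios were tested by exact permutation of the 6 libraries. Limma 3.58.1 and DESeq2 1.42.0 served as alternatives, beside other scalings and filters, a replicate block, and each library left out. The fit was tested on simulated data.

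Members named in the text are, per subunit, the 5 largest rises and falls that passed with at least 5 CPM on average, the highest and lowest levels per kilobase, all paralogue forms with their parents, and a fixed few; others, chosen after their values were seen, are those whose call turns with copies, those apart in their division and those that did not pass. From other lists the text names the smallest adjusted p values in each direction. A few genes of the members and lists count in the totals but are not reported here by name. Members and lists were chosen with earlier results of these data known. Within a group, any 2 libraries had a chi-square per degree of freedom of 2.34 to 3.37 over genes with at least 20 counts, more than sampling gives, and none was taken for a second deposit of another. At these depths 3 counts correspond to 0.111 to 0.156 CPM; this limit covers counting error only.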

Additional observations from a re-analysis of the deposited data

How the results depend on the processing

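The counts of members called and their medians held under library-size, median-of-ratios and member-free scaling, both other filters, DESeq2 and limma-voom, with 20 or 18 small-subunit and 31 or 32 large-subunit members higher. The copies changed most: small-subunit members lower were 7, 4 with rows named -ps and 3 with all copies, and large-subunit members lower 9, 6 and 5. Among members with at most 10% of windows shared, 9 and 2 small-subunit and 9 and 3 large-subunit members were higher and lower. Rpl34 and Rpl35a, whose values moved with copies, were among the lower ones. With all copies the log2 fold changes of Rps2, Rps18, Rps26, Rpl3 and Rpl7a turned to 0.22, 0.14, 0.08, 0.31 and 0.05. With rows named -ps those of Rps2, Rps18, Rps26 and Rpl3 were 0.22, 0.14, 0.08 and 0.31. Rpl7a stayed lower with rows named -ps (-0.14, adjusted p = 4.04e-06), and its rise with all copies was near the threshold (adjusted p = 0.0441). The large to small ratio turned to -0.03 with rows named -ps and -0.05 with all copies (FR minus WT). Scaled by length, the small-subunit share differed by -0.161 points (FR minus WT, p = 0.3 by exact permutation); the cause was not tested. Leaving out each library gave a median of 0.10 to 0.17 for the small and 0.16 to 0.22 for the large subunit, both lowest without WT1, and ratio differences of -0.06 to 0.01 for Rps27l and -0.13 to 0.17 for Rps12l1. Large-subunit members at least 1.5-fold lower were 1, none without FR1, and 2 without WT1 or with no filter. Over all tested genes, same-numbered libraries did not deviate together (r = 0, -0.018 and -0.037). In members of at most 600 bases, though, the median log2 difference from the WT mean was lowest in FR1 (-0.04) and WT1 (-0.06) of their groups. Whether the numbers pair the libraries was not tested for the members alone. With a replicate block 24 and 34 members were higher and 7 and 9 lower, and 10292 genes were called in all against 10440. Rpl39 (adjusted p = 6.76e-05) and Rps12l1 (adjusted p = 1.84e-05) passed with this block. Reads that match several genes, and 3 libraries a group, limit what these counts can show.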
